A study of Homo sapiens with 4 samples.

Results

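The mitochondrial ribosomal proteins are the nuclear-encoded proteins of the ribosome that works inside mitochondria. The genes were chosen by name alone, as all those called MRPS or MRPL followed by a number and at most 1 letter from A to C, which leaves pseudogenes out. This gave 78 of the 58825 genes in the table, 29 named MRPS and 49 named MRPL, and all 78 are annotated as protein coding in GENCODE 29 (GRCh38). The libraries came from HaCaT cells, an established human keratinocyte line, grown at a calcium concentration of 1.2 mM and transduced with lentivirus. Knockdown cells (Lnc-DCi) carried a short hairpin RNA against the long noncoding RNA lnc-DC (shlnc-DC, 2 libraries), and control cells carried the control hairpin (shNC, 2 libraries). All 4 libraries therefore shared the line, the calcium level and the lentiviral treatment. The series asked how silencing lnc-DC alters the expression of keratinocytes induced to differentiate.

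The mitochondrial ribosome, or mitoribosome, makes the few proteins that mitochondrial DNA encodes, all of them parts of the respiratory chain and the ATP synthase. Its 2 ribosomal RNAs are transcribed in the mitochondrion, whereas its proteins are encoded in the nucleus, made in the cytosol and imported. Some of these proteins have counterparts in bacterial ribosomes and others do not. In human cells, loss of single members is known to impair mitochondrial translation, and inherited defects in several of them cause disease of the heart, brain or liver.

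RNA abundance was deposited as FPKM, which scales fragments by transcript length and library size, so a comparison of levels between genes rests on the length used. The targeted transcript, listed as WFDC21P, was at 0.09 and 0.29 FPKM in the knockdown libraries, against 2.15 and 2.76 FPKM in the control libraries. Of 10 keratinocyte markers 8 reached 1 FPKM in every library, while KRT14 stayed at or under 0.35 FPKM and KRT17 at or under 0.85 FPKM. The keratinocyte markers summed to 472 and 496 FPKM in the knockdown libraries and to 782 and 816 FPKM in the control libraries. KRT5 and SFN made up most of that gap, with log2 changes of -1.04 and -0.84. CDH1 and KRT6A were also lower without overlap, with log2 changes of -0.58 and -1.14. Thus 4 of 8 tested markers were lower without overlap, against 19.2% of all tested genes, and 0 were called. DSP, TP63, LAMB3 and PKP3 overlapped between groups, with log2 changes of -0.14, -0.12, -0.11 and 0.0026. Of 20 markers of fibroblasts, melanocytes, leukocytes and endothelial cells, 17 were under 1 FPKM in every library, and PTPRC, KDR, TYR and COL1A2 were among those listed at 0 throughout. The others were endothelial CDH5, melanocyte MITF and leukocyte CD14. In knockdown libraries CDH5 had 3.88 and 6.42 FPKM, MITF 3.74 and 4.05 FPKM and CD14 1.0 and 1.3 FPKM. In control libraries CDH5 had 4.51 and 3.52 FPKM, MITF 4.01 and 2.92 FPKM and CD14 3.0 and 1.53 FPKM. Summed FPKM in knockdown libraries was 0.48 to 0.59 for fibroblast, 4.13 to 4.39 for melanocyte, 1.04 to 1.33 for leukocyte and 3.93 to 6.44 for endothelial markers. In control libraries the sums were 0.60 to 0.68 for fibroblast, 3.38 to 4.68 for melanocyte, 1.61 to 3.05 for leukocyte and 3.61 to 4.58 for endothelial markers. The part of these marker levels in the results was not tested. In such bulk samples, fewer cells of a kind and less RNA per cell cannot be told apart.

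The ETS and YY1 motifs, which bind regulators of nuclear genes for mitochondria, were found in a larger share of the family's promoter windows than of all windows. RefSeq windows on GRCh38.p14, which run from 250 bases before the transcript start to 50 bases after it, were matched by symbol for 69 of 78 members. MRPL2, MRPL10, MRPL13, MRPL15, MRPL21, MRPL23, MRPL35, MRPS28 and MRPS36 had no match. The letters CCGGAAG, the core of sites for ETS factors such as the GABP complex, stood on either strand in 30 of 69 members, or 43.5%, against 12.2% of 27305 genes with a window and 24.2% of 8542 tested genes. The letters AAGATGGC, the core of sites for YY1, stood in 21 members, or 30.4%, against 3.52% of all genes and 7.26% of tested genes. The NRF1 motif stood in 9 members, or 13.0%, against 6.98% of all genes and 14.2% of tested genes, and the cAMP response element TGACGTCA in 1 member, or 1.45%, against 2.25% of all genes and 3.93% of tested genes. The ETS and YY1 letters can share 3 letters, but their matches overlapped in 0 member windows, and 8 members held both. A match is a description of the letters in the window, not a measured binding site.

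The 12 members with the highest and lowest change among those whose groups did not overlap are described later, and 6 of the 11 with a window had a match within 75 bases before and 25 bases after the start. Those 6 are shown 5′ to 3′ along the gene's strand, because they set genes that were higher beside genes that were lower in knockdown cells. Capitals mark the ETS and YY1 letters. MRPL48 (chr11:73787799-73787898, plus strand), MRPL27 (chr17:50373160-50373259, minus strand), MRPS23 (chr17:57850020-57850119, minus strand) and MRPS10 (chr6:42217837-42217936, minus strand) had the higher mean in knockdown cells. MRPS27 (chr5:72320216-72320315, minus strand) and MRPS18A (chr6:43687767-43687866, minus strand) had the lower mean there.
MRPL48: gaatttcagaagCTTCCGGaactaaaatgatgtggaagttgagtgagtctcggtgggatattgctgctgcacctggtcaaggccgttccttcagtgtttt
MRPL27: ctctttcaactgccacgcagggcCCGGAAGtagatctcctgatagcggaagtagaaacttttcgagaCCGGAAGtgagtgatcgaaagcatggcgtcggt
MRPS23: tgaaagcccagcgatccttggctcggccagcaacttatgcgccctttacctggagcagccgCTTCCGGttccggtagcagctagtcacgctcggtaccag
MRPS10: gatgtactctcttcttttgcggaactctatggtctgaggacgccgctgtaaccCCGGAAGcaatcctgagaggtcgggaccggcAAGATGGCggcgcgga
MRPS27: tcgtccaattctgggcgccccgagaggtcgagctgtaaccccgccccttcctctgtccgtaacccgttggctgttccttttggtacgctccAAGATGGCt
MRPS18A: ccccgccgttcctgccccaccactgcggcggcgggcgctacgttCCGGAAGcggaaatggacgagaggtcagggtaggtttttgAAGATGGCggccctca
MRPS10 and MRPS18A held both motifs at like places. The ETS letters began at -22 in MRPS10 and at -31 in MRPS18A, and the YY1 letters at 10 in both, counting the first transcribed base as 1. These 2 genes lay on opposite sides of 0 in the comparison of knockdown with control cells. MRPL27 held the ETS letters at 2 places, beginning at -52 and -8.

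Every member was expressed in every library. The lowest value of any member was 3.06 and 3.03 FPKM in the knockdown libraries and 2.73 and 2.78 FPKM in the control libraries, in each case that of MRPL42. The highest was MRPL12 throughout. Annotated exons covered 16393 bases in MRPL42 and 1028 bases in MRPL12, and the part of length in these levels was not tested. All 78 members passed the filter of a mean of at least 1 FPKM in 1 group, as did 12411 of 58825 genes. Averaged over the 4 libraries, 8 members reached 50 FPKM, 48 lay between 10 and 50 FPKM and 22 lay under 10 FPKM. The median member had 17.5 FPKM, above 81.9% of tested genes, whose own median was 5.43 FPKM. Within a library, the highest member exceeded the lowest 33.9-fold and 36.7-fold in knockdown cells, and 33.0-fold and 35.9-fold in control cells.

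The most abundant member was MRPL12, which forms the stalk that recruits translation factors, with 103.66 and 111.32 FPKM in knockdown libraries, against 89.98 and 99.83 FPKM in control libraries. The knockdown values lay above both control values, yet the nearest knockdown and control values lay closer together than the replicates of either group. MRPL15, the counterpart of a bacterial large subunit protein, followed with 83.01 and 93.12 FPKM in knockdown libraries and 76.22 and 90.63 FPKM in control libraries. MRPL51, which has no bacterial counterpart, had 69.95 and 83.51 FPKM in knockdown libraries and 57.48 and 71.13 FPKM in control libraries. For MRPL15 and MRPL51 the groups overlapped, with replicate 2 above replicate 1 in both. MRPL45, which lies at the exit of the nascent chain and links the ribosome to the inner membrane, had 63.86 and 76.61 FPKM in knockdown libraries, against 57.02 and 65.43 FPKM in control libraries. MRPL47, a neighbour of the exit tunnel, had 67.47 and 71.22 FPKM in knockdown libraries and 50.13 and 60.89 FPKM in control libraries. MRPL47 did not overlap between groups, whereas MRPL45 did. Within each of the 4 libraries MRPL15 stood above MRPL51, and MRPL51 above both MRPL45 and MRPL47, whereas the order of MRPL45 and MRPL47 differed between libraries.

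**Figure D1:**
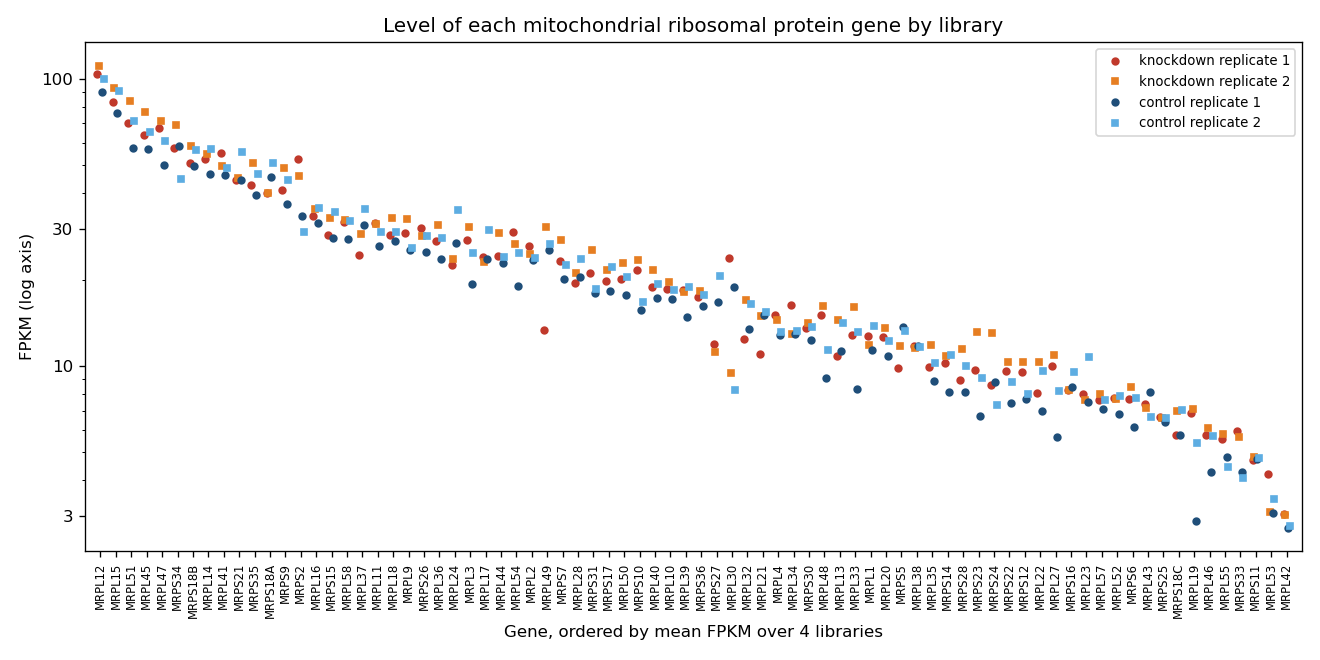
FPKM (log axis) of each of the 78 genes, ordered by the mean over 4 libraries, with 1 point per library; knockdown libraries are red and orange, control libraries dark and light blue. Levels ran from MRPL42 near 3 FPKM to MRPL12 near 100 FPKM, and for most genes the 4 points lay close together, with wide gaps between replicates in MRPL30 and MRPL49.

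The test across all genes called no member. The test was limma on log2(FPKM + 1), two-sided, with Benjamini-Hochberg adjustment over all 12411 genes. At an adjusted p under 0.05 it called 0 of 78 members, while 0.250% of all tested genes were called (0.113% higher and 0.137% lower in knockdown cells). Beside so small a share, 0 calls do not set the family apart from the table. With 2 libraries per group, a gene that was not called is not thereby shown to be unchanged. The smallest limma adjusted p of any member was 0.106, for MRPS2. Without adjustment, 7 members were higher and 1 was lower at p under 0.05, which is 10.3% of the family, against 22.8% of all tested genes (14.8% higher and 8.00% lower). In this fit the family thus held a smaller share of such genes than the table as a whole. The gap depended on the model and was narrower with the replicate number as a further term. There limma found 20 of 78 members and 3791 of 12411 genes at an unadjusted p under 0.05.

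The size of the changes was limited in most members. Of 78 members, 71 had a 95% interval that lay wholly within 1 of 0 on the log2 scale, that is, within a 2-fold change either way. That share was 91.0%, against 82.4% of all tested genes, and these intervals are per gene and not adjusted for their number. No member had a log2 change of 1 or more, a size that 2.48% of all tested genes reached, and 5 members (6.41%) reached 0.5, against 15.8%. The median absolute log2 change was 0.17 in the family and 0.23 over all tested genes, and the median standard error was 0.14 and 0.15.

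On the deposited scale most members lay above 0, as did most tested genes. On the log2 scale, 60 of 78 members (76.9%) lay above 0, while 61.4% of all tested genes did. The median change was 0.13 in the family and 0.091 over all tested genes. Where 0 lies depends on the scaling. Under quantile normalization 44 members lay above 0, against 53.1% of all genes, and the medians were 0.020 in the family and 0.022 over all genes. Under median centring 50 members lay above 0, against 51.4% of all genes, with medians of 0.055 and 0.011. With genes outside mitochondrial DNA rescaled to a common total, 54 members lay above 0, against 56.9% of genes, with medians of 0.093 and 0.055. Groups did not overlap for 35 members (44.9%, against 54.8% of all tested genes): 28 members that were higher in knockdown cells (35.9%, against 35.6% of all tested genes) and 7 that were lower (8.97%, against 19.2%). The share of higher members without overlap was close to the background.

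**Figure D2:**
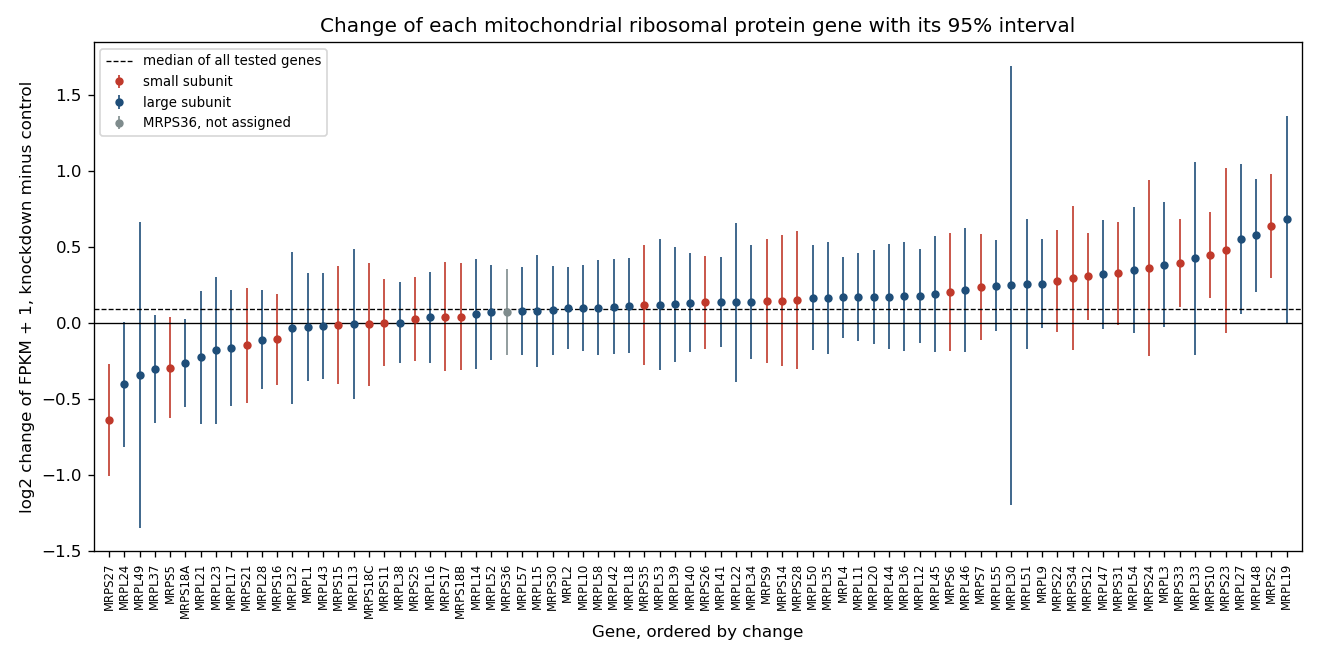
Log2 change of FPKM + 1, knockdown minus control, for each of the 78 genes with its unadjusted 95% interval (n = 2 per group); red marks the small subunit, blue the large subunit and grey MRPS36, and the dashed line is the median of all tested genes. Most intervals include 0, and both subunits are spread along the whole order from MRPS27 to MRPL19.

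**Figure D3:**
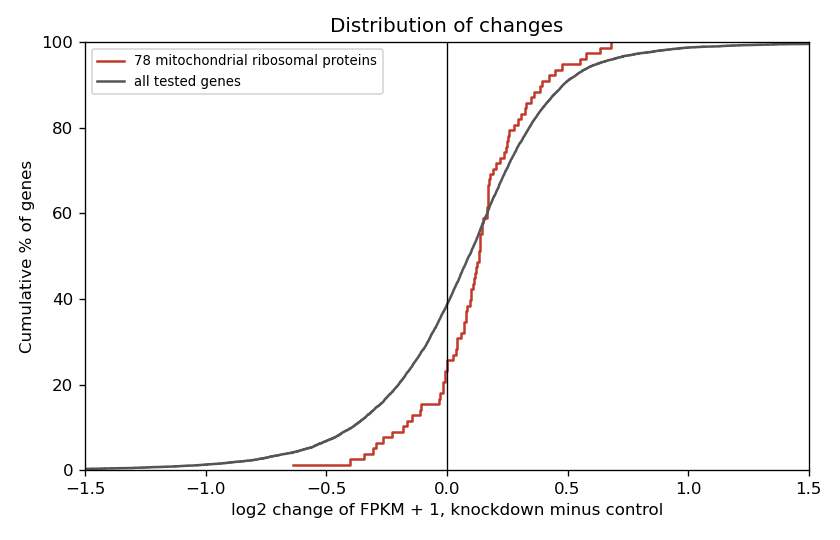
Cumulative percentage of genes against the log2 change of FPKM + 1, knockdown minus control, for the 78 mitochondrial ribosomal proteins (red) and all tested genes (grey, its far ends outside the axis). The red curve is steeper around its middle, with an interquartile range of 0.24, against 0.43 for all tested genes.

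The subunits had similar medians. Of 26 small subunit proteins 20 lay above 0 with a median log2 change of 0.15, and of 51 large subunit proteins 39 lay above 0 with a median of 0.12. MRPS18A and MRPS30 are counted here with the large subunit, where they sit in the structure of the ribosome despite their names. Members with a counterpart in bacterial ribosomes had a median of 0.14 (32 of 45 above 0), and those without one 0.13 (27 of 32 above 0). Summed over genes, large subunit mRNAs exceeded small subunit mRNAs 2.28-fold and 2.21-fold in the knockdown libraries, and 2.25-fold and 2.35-fold in the control libraries. This ratio within a library does not depend on a linear scaling, and the groups overlapped.

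Among small subunit proteins, MRPS2, the counterpart of bacterial protein S2, stood farthest above the control. It had 52.69 and 45.96 FPKM in knockdown libraries, against 33.40 and 29.33 FPKM in control libraries. All knockdown values were above all control values. The mean was 49.3 ± 4.76 FPKM in knockdown cells and 31.4 ± 2.88 FPKM in control cells (SD, n = 2 each), with a log2 change of 0.64 (SE 0.13, interval 0.29 to 0.98) that missed the limma threshold. Its position is chr9:135499984-135504673 on the plus strand in GENCODE 29. MRPS10, also with a bacterial counterpart, had 21.59 and 23.37 FPKM in knockdown libraries and 15.69 and 16.69 FPKM in control libraries, a log2 change of 0.45 (SE 0.11, limma adjusted p = 0.120). The replicates of MRPS10 were close in both groups and did not overlap between them. MRPS12, which belongs to the decoding centre, had 9.54 and 10.31 FPKM in knockdown libraries, against 7.66 and 7.99 FPKM in control libraries (limma adjusted p = 0.198). MRPS23, which has no bacterial counterpart, had 9.67 and 13.09 FPKM in knockdown libraries and 6.72 and 9.05 FPKM in control libraries, with a log2 change of 0.48 (limma adjusted p = 0.259). Its interval included 0, and the nearest values of the groups lay closer together than the replicates. MRPS33, picked after its values were seen as another member with an unadjusted p under 0.05, had 5.93 and 5.66 FPKM in knockdown libraries, against 4.26 and 4.07 FPKM in control libraries (limma adjusted p = 0.147).

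MRPS27, a small subunit protein with RNA-binding repeats, was the member farthest below the control. It had 11.98 and 11.18 FPKM in knockdown libraries, against 16.73 and 20.64 FPKM in control libraries. Both knockdown values lay below both control values, with the wider gap among the control replicates. The mean was 11.6 ± 0.566 FPKM in knockdown cells and 18.7 ± 2.76 FPKM in control cells (SD, n = 2 each), with a log2 change of -0.64 (SE 0.14, limma adjusted p = 0.112). MRPS5, the counterpart of bacterial S5, had 9.86 and 11.79 FPKM in knockdown libraries and 13.66 and 13.28 FPKM in control libraries (limma adjusted p = 0.256). Within a library the ratio of MRPS2 to MRPS27 was 4.40 and 4.11 in knockdown cells and 2.00 and 1.42 in control cells. This pair was picked for its values, so the ratio is a description.

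MRPS16, MRPS22, MRPL3 and MRPL44 are among the members in which inherited defects are known to cause mitochondrial disease. MRPS16 had 8.27 and 8.24 FPKM in knockdown libraries and 8.44 and 9.52 FPKM in control libraries. MRPS22 had 9.63 and 10.35 FPKM in knockdown libraries, against 7.42 and 8.77 FPKM in control libraries. In the large subunit, MRPL3 had 27.48 and 30.41 FPKM in knockdown libraries and 19.34 and 24.83 FPKM in control libraries. MRPL44 had 24.15 and 29.07 FPKM in knockdown libraries and 22.77 and 24.06 FPKM in control libraries. The groups did not overlap for any of the 4 genes, as for 54.8% of all tested genes, and their limma adjusted p lay between 0.238 and 0.608. In each, the nearest values of the groups lay closer together than the control replicates. MRPS16 had the lower mean and the other 3 the higher mean in knockdown cells. With 1 library left out, the log2 change of MRPL3 lay between 0.21 and 0.56, that of MRPS22 between 0.17 and 0.38, that of MRPL44 between 0.043 and 0.30 and that of MRPS16 between -0.18 and -0.029.

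Of the large subunit proteins, MRPL19 had the highest fitted change, and its size varied with the control library. It had 6.86 and 7.11 FPKM in knockdown libraries, against 2.88 and 5.39 FPKM in control libraries, with a log2 change of 0.68 (SE 0.26, limma adjusted p = 0.218). The change was 0.32 without control replicate 1 and 1.04 without control replicate 2. MRPL48, which has no bacterial counterpart, had 15.07 and 16.21 FPKM in knockdown libraries and 9.07 and 11.36 FPKM in control libraries, with a log2 change of 0.58 (SE 0.14, limma adjusted p = 0.124). MRPL27, which in bacteria reaches the peptidyl transferase centre, had 9.99 and 10.93 FPKM in knockdown libraries, against 5.64 and 8.19 FPKM in control libraries (limma adjusted p = 0.186). In these 3 genes the knockdown replicates lay closer together than the control replicates.

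On the other side, MRPL24, whose bacterial counterpart lies at the tunnel exit, had 22.40 and 23.53 FPKM in knockdown libraries, against 26.87 and 35.03 FPKM in control libraries (log2 change -0.40, SE 0.16, limma adjusted p = 0.226). MRPL37, which has no bacterial counterpart, had 24.45 and 28.82 FPKM in knockdown libraries and 31.07 and 35.09 FPKM in control libraries (limma adjusted p = 0.268). MRPL21 had 11.04 and 14.98 FPKM in knockdown libraries and 15.00 and 15.44 FPKM in control libraries, so that only knockdown replicate 1 stood apart (limma adjusted p = 0.468).

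Among these 12 members the change moved by over 1.5 times in 7 when 1 library was left out. The log2 change of MRPS23 lay between 0.28 and 0.68 and that of MRPL27 between 0.32 and 0.79, beside the range of MRPL19 given above. That of MRPL24 lay between -0.59 (without control replicate 1) and -0.22 (without control replicate 2), that of MRPL37 between -0.42 and -0.19, that of MRPS5 between -0.41 and -0.18 and that of MRPL21 between -0.43 and -0.021. MRPS2, MRPS10, MRPL48, MRPS27 and MRPS18A moved by less, and MRPS2 stayed between 0.54 and 0.73 and MRPS27 between -0.78 and -0.50.

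**Figure D4:**
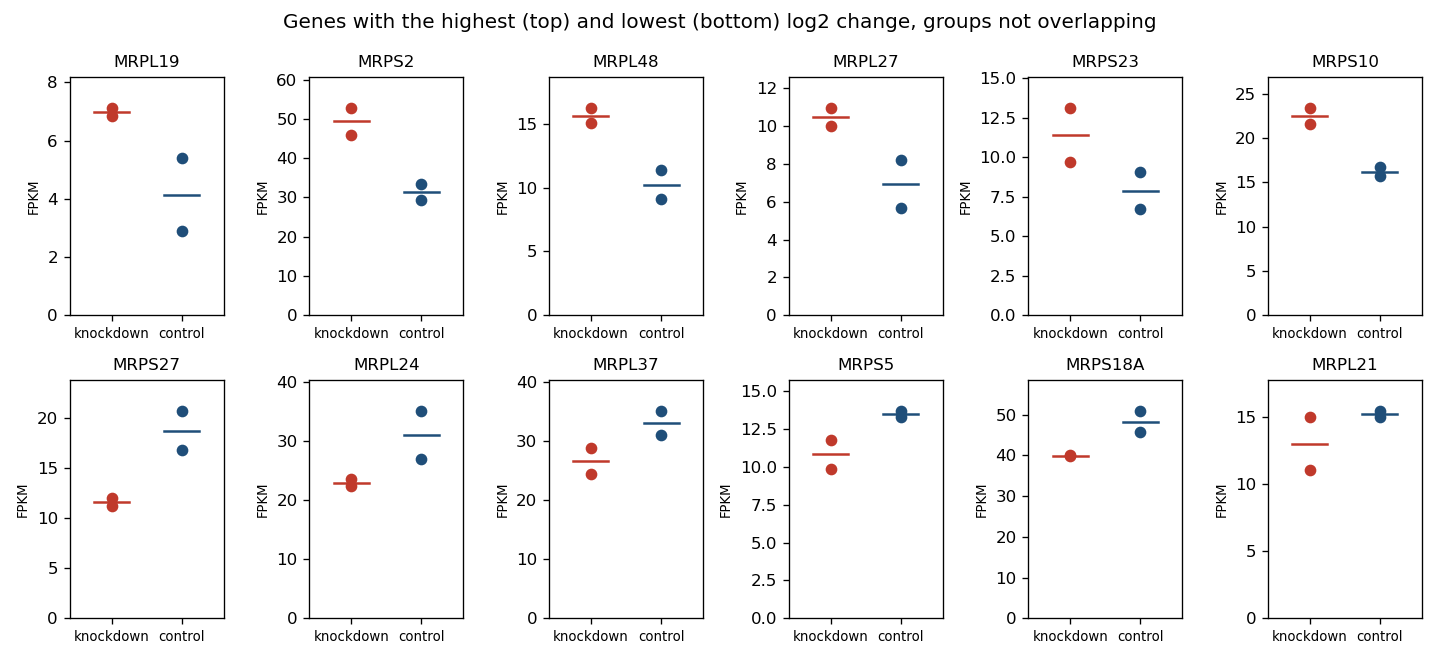
FPKM by library in knockdown (red, left) and control (blue, right) cells for the 6 genes with the highest and the 6 with the lowest log2 change among those whose groups did not overlap; points are libraries, lines are means of 2, and each axis starts at 0. MRPS2 and MRPS10 had knockdown values well above the control, MRPS27 had knockdown values below it, and MRPL19 and MRPL21 each had 1 library apart from its replicate.

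Like MRPL12, MRPL10 and MRPL11 were higher in knockdown cells without overlap, which held for 35.6% of all tested genes. The log2 change was 0.17 for MRPL11, beside 0.18 for MRPL12. MRPL10, which holds MRPL12 in the stalk, had 18.54 and 19.66 FPKM in knockdown libraries and 17.10 and 18.43 FPKM in control libraries, a log2 change of 0.099 with an interval from -0.18 to 0.38. MRPL11, at the base of the stalk, had 31.40 and 31.32 FPKM in knockdown libraries, against 26.20 and 29.36 FPKM in control libraries (interval -0.12 to 0.46). MRPL58, a peptidyl-tRNA hydrolase built into the large subunit, had 31.66 and 32.25 FPKM in knockdown libraries and 27.63 and 31.99 FPKM in control libraries (interval -0.21 to 0.41). The intervals of these 3 genes exclude changes of 2-fold.

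The 3 paralogues named MRPS18 stood at different levels. MRPS18B, of the small subunit, had 50.76 and 58.56 FPKM in knockdown libraries and 49.62 and 56.51 FPKM in control libraries. MRPS18A, of the large subunit, had 39.98 and 39.95 FPKM in knockdown libraries, against 45.65 and 50.84 FPKM in control libraries. MRPS18C, the small subunit counterpart of bacterial S18, had 5.74 and 6.95 FPKM in knockdown libraries and 5.75 and 7.03 FPKM in control libraries. Their limma adjusted p was 0.876, 0.247 and 0.980 in that order, and only MRPS18A did not overlap between groups. MRPS30 had 13.54 and 14.17 FPKM in knockdown libraries and 12.35 and 13.72 FPKM in control libraries. MRPS36, which despite its name is known as a subunit of the oxoglutarate dehydrogenase complex, had 17.38 and 18.31 FPKM in knockdown libraries and 16.23 and 17.68 FPKM in control libraries.

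Replicate number moved with the levels of the family. Replicate 2 was above replicate 1 in 55 of 78 members in knockdown cells (70.5%, against 40.8% of all tested genes) and in 69 of 78 in control cells (88.5%, against 40.7%). The median difference of replicate 2 minus replicate 1 on the log2 scale was 0.097 in knockdown and 0.18 in control cells, where all tested genes had -0.049 and -0.056. In both groups together this held for 51 of 78 members (65.4%, against 24.0%). These gaps between replicates are of the size of the median change between the groups. For 52 of 78 members (66.7%, against 56.6% of tested genes) the group means differed by less than the larger gap between replicates. MRPL30 and MRPL49, named after their values were seen, had the widest intervals. MRPL30 had 23.77 and 9.47 FPKM in knockdown libraries and 18.85 and 8.25 FPKM in control libraries, high in replicate 1 of both groups. MRPL49 had 13.36 and 30.50 FPKM in knockdown libraries, against 25.31 and 26.69 FPKM in control libraries, low only in knockdown replicate 1. Neither gene allows a statement on the direction of its change.

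Whether the family as a whole stood apart between the groups depended on the total it was set against. Its FPKM summed to 1824 and 1980 in knockdown libraries and to 1643 and 1853 in control libraries. Transcripts from mitochondrial DNA took 28.1% and 26.8% of all FPKM in knockdown libraries, against 41.2% and 41.9% in control libraries, and FPKM is relative to all of it. As a share of FPKM from the remaining genes, the family had 0.935% and 0.984% in knockdown libraries, against 0.874% and 0.942% in control libraries. The groups overlapped in both the sum and this share. As a share of all FPKM, mitochondrial transcripts included, the family had 0.672% and 0.720% in knockdown libraries, against 0.514% and 0.548% in control libraries, which did not overlap.

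The RNA partners of these proteins are the rRNAs of the mitoribosome. MT-RNR2, the rRNA of the large subunit, had 8361 and 9639 FPKM in knockdown libraries, against 20278 and 22431 FPKM in control libraries, a log2 change of -1.25 (SE 0.24, limma adjusted p = 0.102). MT-RNR1, the rRNA of the small subunit, had 3084 and 4105 FPKM in knockdown libraries and 3007 and 3235 FPKM in control libraries, a log2 change of 0.19 (SE 0.22, limma adjusted p = 0.636). MT-RNR2 did not overlap between groups and MT-RNR1 did, and neither passed the threshold. The libraries were selected for polyadenylated RNA, so these values count rRNA that passed that selection. All 13 mitochondrial mRNAs, the templates of the mitoribosome, had lower values in knockdown cells without overlap, which held for 19.2% of all tested genes, at a median log2 change of -0.98, and 0 of 13 passed.

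**Figure D5:**
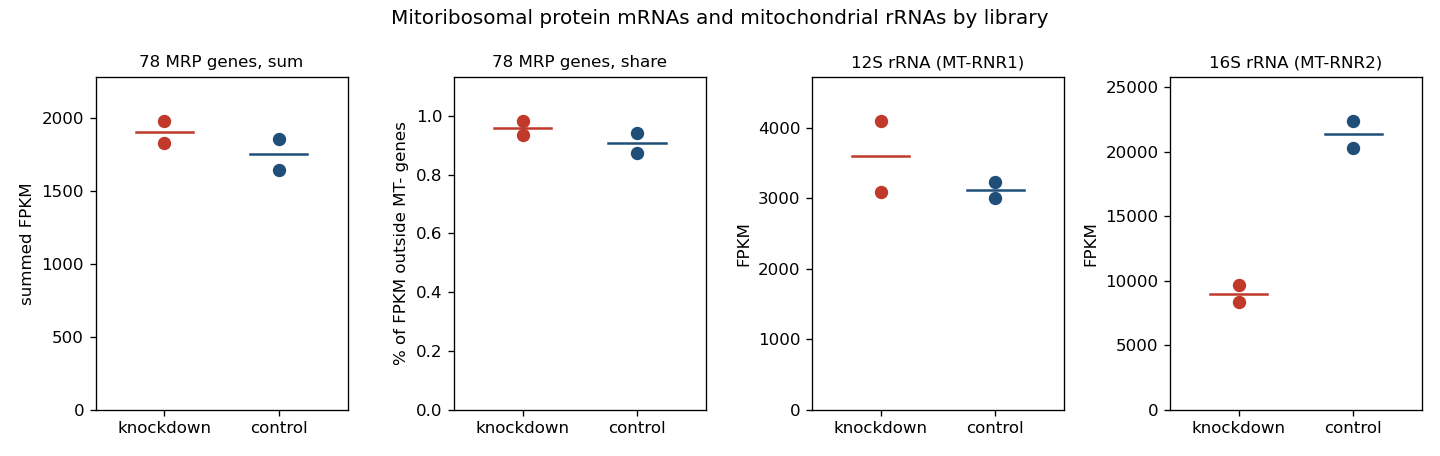
Values by library in knockdown (red, left) and control (blue, right) cells for the summed FPKM of the 78 genes, their share of FPKM outside mitochondrially encoded genes, and the FPKM of the small (MT-RNR1) and large (MT-RNR2) subunit rRNA; points are libraries, lines are means of 2. The family lay between 1643 and 1980 FPKM in all 4 libraries, whereas MT-RNR2 was at or under 9639 FPKM in knockdown and at or above 20278 FPKM in control libraries.

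No gene passed the limma threshold over all genes in the lists of other proteins of mitochondrial translation. Over all tested genes 0.250% were called and 61.4% lay above 0, and the counts of this and the next lists stand beside those shares. In lists this short, 0 calls do not set them apart from the table. Mitoribosomal proteins with other names are DAP3, AURKAIP1, CHCHD1, PTCD3 and GADD45GIP1, with 4 of 5 above 0, a median log2 change of 0.16 and 0 called. GADD45GIP1 had 24.93 and 24.49 FPKM in knockdown libraries, against 14.53 and 21.11 FPKM in control libraries (limma adjusted p = 0.240). PTCD3 and CHCHD1 had log2 changes of 0.16 and 0.17.

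Factors that assemble the mitoribosome had 17 of 26 genes above 0, a median log2 change of 0.24 and 0 called, with groups apart for 15 higher and 4 lower genes of 26, where 35.6% of all tested genes were apart and higher and 19.2% apart and lower. RPUSD4, a pseudouridine synthase that acts on the large rRNA, had 8.53 and 7.59 FPKM in knockdown libraries, against 4.31 and 3.32 FPKM in control libraries, a log2 change of 0.92 (SE 0.15, limma adjusted p = 0.0866). FASTKD2, an RNA-binding protein of large subunit assembly, had 7.98 and 8.14 FPKM in knockdown libraries and 5.66 and 4.74 FPKM in control libraries (limma adjusted p = 0.116). MPV17L2, another large subunit assembly factor, had 9.38 and 9.40 FPKM in knockdown libraries and 7.23 and 7.67 FPKM in control libraries (limma adjusted p = 0.197). These 3 genes did not overlap between groups.

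Translation factors had 14 of 17 genes above 0, a median of 0.15 and 0 called. GFM1, the elongation factor that moves the ribosome along the mRNA, had 12.05 and 13.08 FPKM in knockdown libraries, against 8.32 and 8.28 FPKM in control libraries (log2 change 0.54, limma adjusted p = 0.103). GUF1, a related GTPase, had 14.50 and 13.13 FPKM in knockdown libraries and 9.86 and 7.94 FPKM in control libraries (limma adjusted p = 0.121). MTIF2, an initiation factor, had 15.50 and 17.53 FPKM in knockdown libraries and 11.59 and 11.90 FPKM in control libraries (limma adjusted p = 0.126). The mitochondrial aminoacyl-tRNA synthetases and amidotransferase subunits had 16 of 20 genes above 0, a median of 0.16 and 0 called, led by HARS2 with 11.93 and 11.86 FPKM in knockdown libraries, against 8.84 and 8.34 FPKM in control libraries (limma adjusted p = 0.121). IARS2, the synthetase for isoleucine, had 83.52 and 89.91 FPKM in knockdown libraries and 69.20 and 70.73 FPKM in control libraries, a log2 change of 0.30 (limma adjusted p = 0.196).

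Genes of mitochondrial transcription went both ways, with 5 of 7 above 0, a median of 0.20 and 0 called. TFAM, which packages mitochondrial DNA and starts its transcription, had 8.90 and 10.56 FPKM in knockdown libraries, against 14.92 and 14.57 FPKM in control libraries (log2 change -0.56, limma adjusted p = 0.113). Its partner TFB2M had 21.98 and 24.94 FPKM in knockdown libraries and 15.00 and 17.00 FPKM in control libraries (log2 change 0.52, limma adjusted p = 0.120), and SUPV3L1, a helicase of RNA decay, had a log2 change of 0.36. Of 9 genes for regulators of nuclear mitochondrial genes 8 were tested, with 5 above 0, a median of 0.13 and 0 called. GABPB1, the partner of the ETS factor GABPA, had 11.06 and 11.20 FPKM in knockdown libraries, against 5.54 and 5.64 FPKM in control libraries (log2 change 0.88, SE 0.10, limma adjusted p = 0.0661). Replicates of GABPB1 were nearly equal within each group. GABPA itself had 5.00 and 5.05 FPKM in knockdown libraries and 5.49 and 4.86 FPKM in control libraries, and NRF1 and ESRRA had log2 changes of -0.23 and -0.36 with limma adjusted p of 0.373 and 0.409.

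The members were scattered over 21 chromosomes, with 8 each on chromosomes 1, 2 and 17. Their annotated exons covered a median of 2539 bases, against 4436 bases over tested genes found in GENCODE. Exon bases were shared with another gene on the same strand by 16 members and on the opposite strand by 29, so that reads could be divided between genes there. MRPL12 shares exon bases with AC139530.2, MRPS5 with ZNF514 and MRPL30 with AC079447.1, each on the same strand. On the opposite strand MRPS2 shares exon bases with C9orf116, MRPS27 with PTCD2, MRPL19 with GCFC2 and MRPL49 with FAU. The 37 members that share none had a median log2 change of 0.12, and 0 were called. Of 75 pseudogenes of the family in the table, 61 were listed at 0 in every library. MRPS31P4, a pseudogene of MRPS31, had 3.33 and 2.70 FPKM in knockdown libraries and 2.16 and 1.11 FPKM in control libraries, and MRPS31P5 had 1.56 and 1.22 FPKM in knockdown libraries and 1.05 and 1.01 FPKM in control libraries. MRPL45P2 had 2.14 and 2.18 FPKM in knockdown libraries and 1.57 and 2.08 FPKM in control libraries, and MRPL3P1 had 1.09 and 1.31 FPKM in knockdown libraries and 0.98 and 1.0 FPKM in control libraries. Where reads were divided between a gene and its pseudogene, the values of MRPS31, MRPL45 and MRPL3 are uncertain to that extent. How alike these copies are in sequence was not tested.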

How the data were processed

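RNA-seq was done on 2 knockdown and 2 control libraries. Polyadenylated RNA was captured on oligo(dT) beads and sequenced as paired reads after a dUTP step that marks strand, per the labels' protocols. The submitters' processing notes list StringTie 1.3.4d, HISAT2 2.0.4, edgeR, DESeq2 and cutadapt 1.9, without roles. For build, annotation and strand setting, the sources used here say nothing. The authors deposited FPKM values with 2 decimals, and a fold (ratio) column with its log2, which was not used for any result. There were 0 columns of FPKM without a sample.

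Values were taken as log2(FPKM + 1) into limma 3.58.1 (R 4.3.3), with a trend, without the robust option and with the group alone as a term, for genes whose mean reached 1 FPKM in either group. A fold on this scale understates the change of low genes. The script was first tested on simulated data. With 2 libraries per group, limma borrows its estimate of spread from all genes. The labels call the replicates biological but do not say that they were separate transductions, so p-values measure the spread between these samples. Sequencing depth is unknown: at the best-matching depth, 29.5% to 32.1% of low values were whole reads to a tolerance of 0.1, so reads were not recovered. Of 58825 gene IDs, 58552 were found in GENCODE 29, used for positions. The members, lists and tests were chosen with earlier results of these data known.

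The genes named are the 6 highest and 6 lowest by log2 change among members without overlap, the 5 most abundant, 15 fixed members, and up to 3 per comparison list, of which some are not reported here. Exceptions chosen after their values were seen are MRPS33, MRPL30, MRPL49, MRPL42, GABPA, the pseudogenes and the cell type markers given by name. The subunit and class of each member were assigned from general knowledge of the ribosome's structure. Alternatives changed the pseudocount, the filter, the scaling, the libraries, the replicate term and the trend.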

Additional observations from a re-analysis of the deposited data

How the results depend on the processing

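limma called 0 members under each of the 12 alternatives, and their smallest adjusted p there lay between 0.0826 and 0.303; at an unadjusted p under 0.05 it found 8 members, and 3 to 20 under the alternatives. Over all genes the 31 calls (14 higher, 17 lower) became 58 with the stricter filter, 57 under quantile normalization (17 higher, 40 lower), 17 with trend off and 0 with no filter (3876 genes at an unadjusted p under 0.05). Leaving out any 1 library gave 0 to 0 calls, with 1797 to 2251 genes at an unadjusted p under 0.05. The median log2 change of members lay between 0.020 and 0.20 over all alternatives, and between 0.052 (without control replicate 1) and 0.20 (without control replicate 2) when a library was left out.

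With the replicate number as a block, 0 genes were called and 3791 had an unadjusted p under 0.05. The labels do not say that a number marks a shared batch. Differences between replicates had a Pearson correlation of 0.12 across the tested genes and 0.41 across members. By rank (Spearman) the correlation across members was 0.17. With the block limma found 20 of 78 members at an unadjusted p under 0.05, against 8 without it. Over all tested genes these counts were 3791 and 2827. No member was called with or without the block.

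Of 78 members 45 kept their sign under every alternative in which they were tested, 36 above and 9 below 0. Changes of the filter, the replicate term or the trend leave a log2 change as it is, so they could not alter a sign. Under the stricter filter 75 of 78 members were tested. Among named members, none of them called, these changed sign under quantile normalization: MRPL15 (-0.045), MRPS18B (-0.084), MRPL10 (-0.030), MRPL58 (-0.022), MRPS36 (-0.051) and MRPS30 (-0.024). Median centring turned MRPS18B (-0.039) and MRPS36 (-0.0094), and rescaling of nuclear genes turned MRPS18B (-0.0016). With 1 library left out, MRPL15 ranged from -0.043 to 0.20, MRPS18B from -0.060 to 0.14, MRPS18C from -0.13 to 0.12 and MRPL58 from -0.0016 to 0.20. The cause was not tested.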
